A study of Mus musculus with 18 samples.

Results

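Ripply3, Phldb2, Limch1, Spata13, Arhgdib, Rab27a, Adgrg2, Slc16a9, St3gal6 and Akr1c18 are 10 genes of mouse skin epithelium that were selected for low signal in undivided bulge cells against non-bulge cells. They are 10 of 18193 genes with a probe set of a single gene symbol on the array, and 11569 of those genes had signal enough to be tested. The 10 genes have 25 of the 45101 probe sets, and 21 of the 25 exceeded the median of their array on at least 3 of 18 arrays, the filter on low signal. A probe set that is dim in one fraction passes that filter only through the fractions where it is bright, so passing is no independent sign of a difference, while a probe set that is bright everywhere, such as that of Arhgdib, passes as well. Because the selection used undivided and non-bulge arrays, every difference of these genes that involves those arrays is given as a description without a test. Only divided bulge at the later age against divided bulge at the earlier age was tested for them.

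The study measured expression on Affymetrix arrays in epidermal and hair follicle cells sorted from mouse skin by their history of division. All mice had the genotype K5tTA x pTRE-H2B-GFP, from FvB and CD1 parents, so that the keratin 5 promoter of basal epithelial cells drives a doxycycline-repressible histone H2B-GFP label. All of them ate doxycycline at 1 g per kg of food, either from postnatal day (PD) 18 to PD21 or from PD22 to PD25, and were sampled at the end of that chase. Surface CD34 and α6-integrin gave bulge and non-bulge cells, and the GFP left in bulge cells gave those of 0 divisions (undivided) and those that had divided 1 or 2 times (divided). The 6 groups are thus non-bulge, divided bulge and undivided bulge at PD21, and the same fractions at PD25. Each group held 3 arrays from 3 separate mice, and 1 mouse gave all 3 fractions of its age, so that 6 mice gave the 18 arrays.

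The bulge is the part of the outer root sheath that houses hair follicle stem cells, which divide rarely and re-enter division as a new hair cycle starts. Non-bulge cells of a skin suspension are mostly other keratinocytes of the interfollicular epidermis and the upper follicle. The 10 genes belong to unrelated families. Ripply3 is a nuclear co-repressor, Phldb2 and Limch1 act at the cell cortex and on actomyosin, Spata13 and Arhgdib regulate small GTPases of the cytoskeleton, and Rab27a directs secretory vesicles. Adgrg2 is an adhesion G protein-coupled receptor, Slc16a9 a transporter of the monocarboxylate family, St3gal6 a sialyltransferase and Akr1c18 a steroid-metabolising reductase.

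Levels below are log2(signal + 16) of the authors' linear array signals, with the probe set of highest mean standing for its gene, and errors of differences are standard errors of the fit. Values 1 unit apart differ 2-fold in signal + 16, and the added 16 makes fold changes of dim genes smaller than those of the signals themselves. Levels are compared between fractions for 1 gene, never between genes. A lower level in a sorted pool can come from fewer cells with the transcript or from less transcript per cell, and these cannot be told apart. Array medians lay between 60.3 and 117 signal units, and a level under the median of its array is called dim below. By the bacterial spike-in controls the 18 arrays fell into 2 sets of 9, A and B. The highest spike-in level of set A and the lowest of set B lay 1.54 log2 units apart. Set A held mice 1 and 2 of PD21 and mouse 1 of PD25 in all 3 fractions, and set B held the other mice, so values within each set stand beside the pooled ones. Cd34, a sorting marker of the bulge, averaged 12.73 in undivided and 4.52 in non-bulge cells at PD21, and the divided fraction of PD21 lay between them at 8.93. At PD25 divided bulge reached 12.06, close to undivided bulge at 12.39 and far from non-bulge at 4.97. The label of a divided bulge fraction therefore went with a lower level of this marker at PD21 than at PD25. The PD25 level varied by mouse. Its signals were 3411.4 and 3007.3 in mice 1 and 2, against 5788.8 and 4837.9 in undivided bulge. In mouse 3 they were 7445.1 against 5469.3.

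RefSeq lists a transcription start for 9 of the 10 genes in its GRCm38.p6 table, 16 starts in all, and 4 of the genes have a single listed start. The 250 bases before those 4 starts are given because they can be assigned to their gene without a choice between starts. The strands are those of the transcript, 5′ to 3′, with the base before the start as the last. Capitals mark GGGCGG, the GC box, on either strand; 7 other motifs were searched and none of them is in these 4 windows. Phldb2 lies on the minus strand (chr16:45844379-45844628), as does Akr1c18 (chr13:4150647-4150896), and Adgrg2 (chrX:160390440-160390689) and Slc16a9 (chr10:70245026-70245275) lie on the plus strand.
Phldb2: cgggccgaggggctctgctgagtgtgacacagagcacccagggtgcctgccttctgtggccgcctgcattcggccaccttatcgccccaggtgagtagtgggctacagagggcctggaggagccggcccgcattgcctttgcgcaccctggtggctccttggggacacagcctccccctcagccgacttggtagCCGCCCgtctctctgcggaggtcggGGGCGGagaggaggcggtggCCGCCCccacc
Adgrg2: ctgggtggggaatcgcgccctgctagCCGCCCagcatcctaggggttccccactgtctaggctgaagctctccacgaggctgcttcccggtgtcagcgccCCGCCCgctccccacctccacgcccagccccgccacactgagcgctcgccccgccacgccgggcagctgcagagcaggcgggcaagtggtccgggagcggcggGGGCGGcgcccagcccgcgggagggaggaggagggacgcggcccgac
Slc16a9: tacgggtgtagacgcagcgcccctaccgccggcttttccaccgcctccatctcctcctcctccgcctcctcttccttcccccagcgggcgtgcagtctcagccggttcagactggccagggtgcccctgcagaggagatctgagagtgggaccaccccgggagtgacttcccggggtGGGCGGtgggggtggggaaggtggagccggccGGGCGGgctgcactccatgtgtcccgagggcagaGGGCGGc
Akr1c18: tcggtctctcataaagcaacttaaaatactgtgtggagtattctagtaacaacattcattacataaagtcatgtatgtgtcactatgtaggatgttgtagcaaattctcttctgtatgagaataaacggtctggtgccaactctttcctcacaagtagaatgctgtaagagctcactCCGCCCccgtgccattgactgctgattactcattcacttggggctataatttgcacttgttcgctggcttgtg
The windows of Slc16a9 (70.4%), Adgrg2 (75.6%) and Phldb2 (70%) are rich in G and C, and each holds 3 GC boxes. The window of Akr1c18 has 41.6% G and C and a single GC box. Over windows that reach from 250 bases before to 50 after the start, all 9 genes have a GC box at 1 or more of their starts (9 of 16 starts). Of the 27025 genes listed there, 38.2% have one, and it stands in 35.7% of 32851 windows. St3gal6 is the only one of the 9 with TAATTA, the core of LIM homeobox sites, in 1 of its 2 windows, and 6.12% of all genes have it at 1 or more starts. The AP-1 motif TGANTCA was in 0 of the 16 windows and in 7.81% of all windows. Of the 9 genes, 3 have CTTTGA, the core of TCF and LEF sites (18.2% of all genes), 3 have TGTGGT of Runx factors (18.9%), 2 have AGATAA of GATA factors (12.7%), 3 have CCAAT (41.1%) and 2 have TATAAA (15.7%). A match says only that the letters are present.

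Arrays of the divided fraction were not used in selecting the genes, although they come from the same mice. Between PD21 and PD25, 9 of the 10 genes fell in divided bulge, with log2 differences of -3.67 to -2.09, and Phldb2 did not pass the test. In the same comparison 3.47% of 11569 tested genes were lower and 4.37% higher at PD25 (402 and 505 genes), with a median difference of 0.00. The 9 genes that fell also had no overlap between the 3 arrays of PD21 and the 3 of PD25, which held in that direction for 10.4% of all tested genes. The labels do not give the sort gates of each age, so the age of the mice and the gating of divided cells cannot be told apart. In undivided bulge the same difference between ages lay between -0.67 and 0.78, and all 10 genes overlapped between the ages, while 12.3% of tested genes did not, in either direction. In non-bulge cells it lay between -2.01 and 0.23, and 3 genes, Ripply3, Spata13 and Akr1c18, were lower at PD25 without overlap, as were 3.93% of tested genes. Lhx2, a bulge transcription factor, moved the other way in divided bulge, from 9.64 at PD21 to 12.10 at PD25. The 15 bulge markers together summed to 67834 to 109964 signal units at PD21 and 101173 to 184822 at PD25, ranges that overlapped. Bright markers weigh most in these sums, and some of them differed little between the ages, such as Krt15 (15.14 and 15.08) and Col17a1 (14.16 and 14.27). The part of the marker differences in the fall of the 9 genes was not tested.

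**Figure D1:**
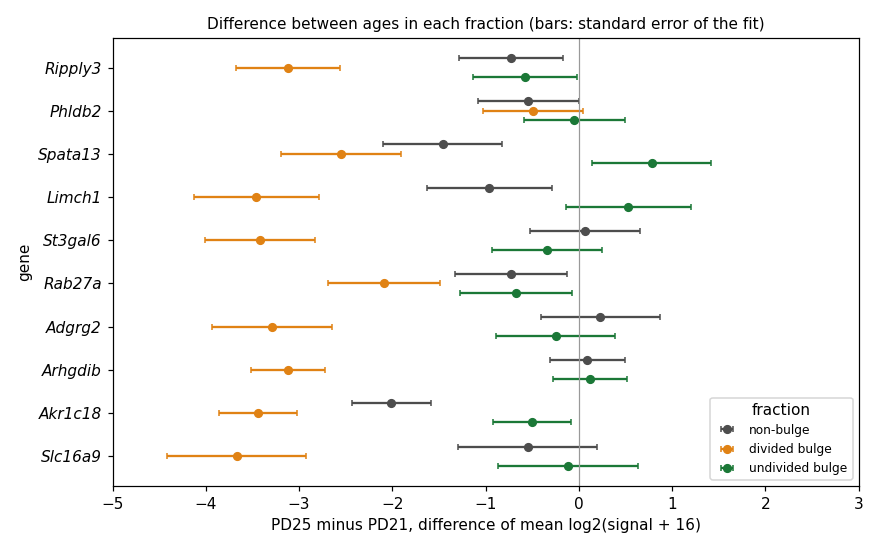
Difference of mean log2(signal + 16) between PD25 and PD21 for each gene (rows) in non-bulge (grey), divided bulge (orange) and undivided bulge (green); points are fitted differences and bars their standard errors, 3 mice per group. In divided bulge 9 of the 10 points lie at -2.09 or lower, and Phldb2 stands apart at -0.49.

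Within array set A, where divided bulge has 2 arrays of PD21 and 1 of PD25, 6 of the 10 genes passed (St3gal6, Rab27a, Adgrg2, Arhgdib, Akr1c18 and Slc16a9). Within set B, with 1 array of PD21 and 2 of PD25, 4 passed (Ripply3, Spata13, Arhgdib and Akr1c18). The lone array of each set is assumed to vary like the other groups. The 9 genes were lower at PD25 within both sets, and Arhgdib and Akr1c18 passed in both. Phldb2 was at 0.67 in set A and -1.90 in set B.

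Set against non-bulge cells, all 10 genes were lower in undivided bulge at PD21, with differences of -4.82 to -2.93. At PD25 the range was -4.87 to -2.06. These are the values the genes were selected on, and no array of undivided bulge reached the lowest non-bulge array of its age in any of them; of all tested genes 13.3% at PD21 and 11.7% at PD25 were lower without overlap. Over all tested genes, 4.93% were lower and 6.12% higher in undivided bulge at PD21, and 4.83% and 5.71% at PD25. Of the 30 levels in a group (10 genes on 3 arrays), 16 were dim in undivided bulge of PD21, 19 in undivided bulge of PD25 and 17 in divided bulge of PD25. In both non-bulge groups and in divided bulge of PD21, 0 of 30 were dim.

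**Figure D2:**
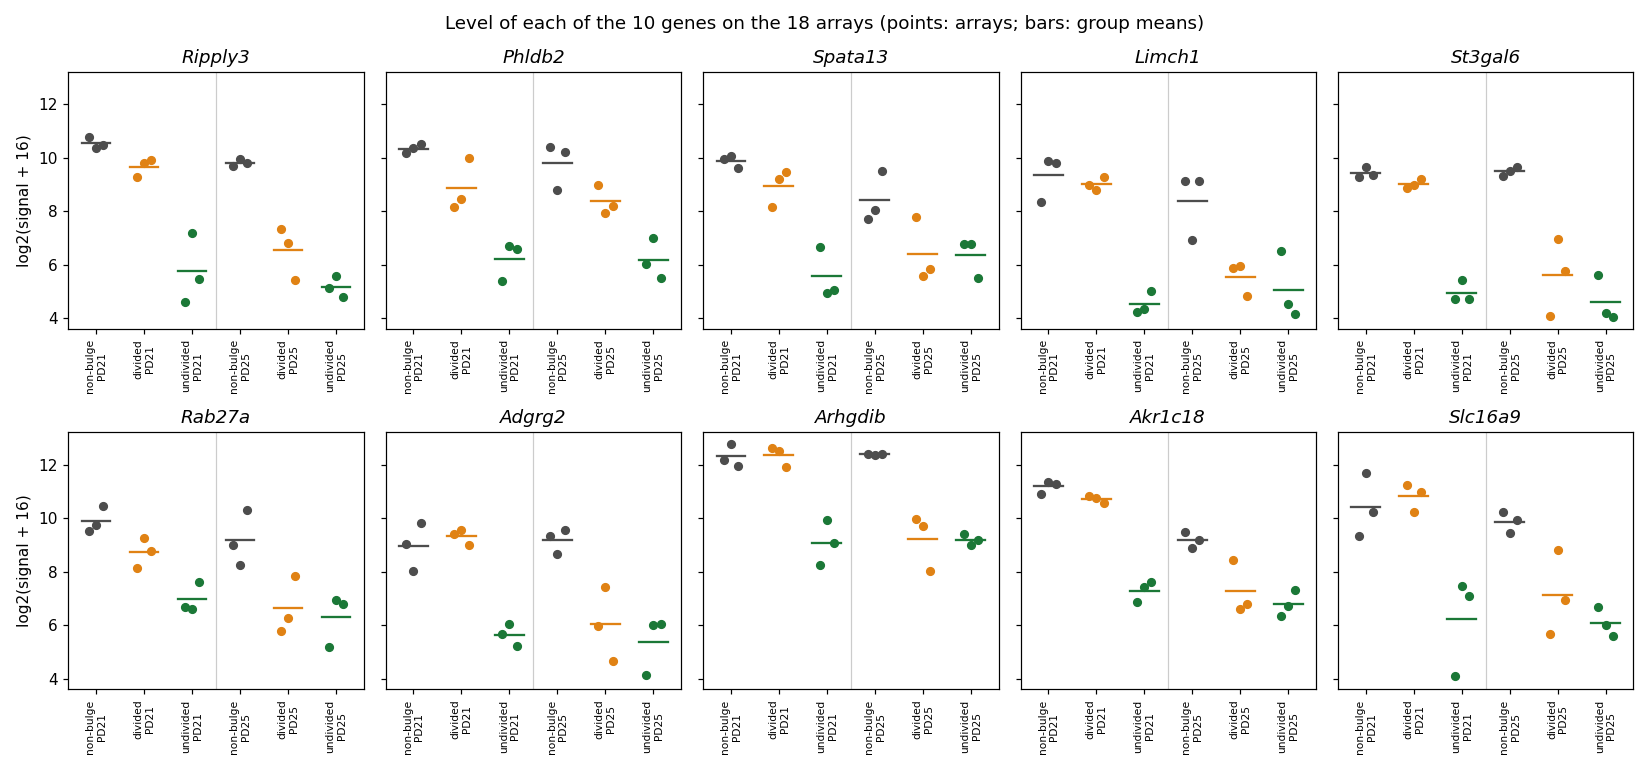
Levels of the 10 genes, log2(signal + 16) on the vertical axis, in the 6 groups on the horizontal axis; points are arrays (3 mice per group) and bars are group means. In each panel non-bulge cells of both ages and divided bulge of PD21 are high and undivided bulge is low, and divided bulge of PD25 is low except for Phldb2.

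Ripply3 recruits Groucho co-repressors to T-box transcription factors and turns them into repressors. Its levels at PD21 in mice 1 to 3 were 10.77, 10.38 and 10.48 in non-bulge, 9.27, 9.80 and 9.91 in divided bulge and 4.60, 7.20 and 5.49 in undivided bulge. At PD25 they were 9.68, 9.96 and 9.80 in non-bulge, 7.36, 6.83 and 5.43 in divided bulge and 5.15, 5.58 and 4.81 in undivided bulge. The high groups ran from non-bulge of PD21, which overlapped no other group, to non-bulge of PD25 and divided bulge of PD21, which overlapped each other. The 3 other groups lay lower and overlapped their neighbours in order. In divided bulge Ripply3 fell by 3.12 ± 0.56 between the ages (limma adjusted p = 0.000782), from 9.66 ± 0.34 to 6.54 ± 1.00 (SD, n = 3).

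Among 14 partners of Ripply3, the Ripply, T-box and Groucho (Tle) genes, 8 could be tested, and 2 were higher in undivided bulge than outside the bulge at PD21 and 1 at PD25. Tbx1 is a bulge marker and a T-box factor whose activity as a protein Ripply3 is known to repress. Its transcript was higher in undivided bulge by 4.53 ± 0.37 at PD21 (adjusted p = 9.93e-09) and by 4.20 ± 0.37 at PD25 (adjusted p = 3.32e-08). In divided bulge Tbx1 rose by 3.03 ± 0.37 between the ages (adjusted p = 1.26e-05), as other bulge markers such as Lhx2 did. This is opposite in direction to Ripply3, and a link between the transcripts of Ripply3 and Tbx1 was not tested. The group means of Tbx1 were 7.44, 9.35 and 11.97 in non-bulge, divided and undivided cells at PD21 and 8.22, 12.38 and 12.41 at PD25. The Groucho gene Tle1 was higher at PD21 (1.92 ± 0.55, adjusted p = 0.0219) and stood at 1.49 ± 0.55 at PD25 (adjusted p = 0.0945). Of the 8, 0 passed as lower at either age.

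Phldb2 (LL5 beta) binds membrane phosphoinositides and holds CLASP-bound microtubule ends at the cortex beside integrin adhesions. At PD21 it read 10.17, 10.36 and 10.51 in non-bulge, 8.18, 8.47 and 9.99 in divided bulge and 5.39, 6.71 and 6.61 in undivided bulge. The PD25 arrays read 10.41, 8.80 and 10.22 in non-bulge, 8.99, 7.96 and 8.22 in divided bulge and 6.05, 6.99 and 5.53 in undivided bulge. Undivided bulge lay below all other arrays at both ages, and the other groups overlapped their neighbours. Of the 10 genes Phldb2 was the only one whose divided arrays lay above undivided ones without overlap at PD25, by 2.20 ± 0.54, beside 6.19% of tested genes. Its difference between the ages in divided bulge was -0.49 ± 0.54 (adjusted p = 0.759), which does not show that the ages are alike. Without mouse 3 of divided PD21, the highest array of that group at 9.99, the difference was 0.07.

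Of 13 genes of the cortical complex around Phldb2, 11 could be tested; 3 were higher and 1 lower in undivided bulge at PD21, and 2 and 1 at PD25. Clasp2, the microtubule plus-end protein that Phldb2 anchors, was lower, at -1.30 ± 0.28 at PD21 (adjusted p = 0.00197) and -1.26 ± 0.28 at PD25 (adjusted p = 0.00267). Kank2, an adaptor between talin and the cortical complex, was higher by 2.29 ± 0.27 at PD21 (adjusted p = 2.11e-06) and by 1.69 ± 0.27 at PD25 (adjusted p = 1e-04). The cytoskeletal crosslinker Macf1 was higher by 1.23 ± 0.28 (adjusted p = 0.00352) and by 1.53 ± 0.28 (adjusted p = 0.000412). Between the ages of divided bulge 1 of the 11 fell and 2 rose: Clasp2 fell by 1.30 ± 0.28 (adjusted p = 0.00342), Kank2 rose by 1.74 ± 0.27 (adjusted p = 0.000216) and Macf1 by 1.20 ± 0.28 (adjusted p = 0.00715). Kank1 passed at PD21 only (0.97 ± 0.31, adjusted p = 0.0415), with 0.48 ± 0.31 at PD25 (adjusted p = 0.447). Phldb1, the paralog of Phldb2, did not pass at PD21 (0.31 ± 0.36, adjusted p = 0.683) or PD25 (1.07 ± 0.36, adjusted p = 0.0604).

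Limch1 promotes the assembly and contraction of non-muscle myosin. Non-bulge arrays of PD21 read 8.37, 9.90 and 9.81, divided bulge 8.98, 8.80 and 9.30, and undivided bulge 4.26, 4.34 and 5.04. At PD25 the levels were 9.14, 6.94 and 9.14 in non-bulge, 5.88, 5.97 and 4.85 in divided bulge and 6.53, 4.53 and 4.15 in undivided bulge. The 3 high groups overlapped one another, the 3 low groups overlapped their neighbours, and no array of a low group reached a high one. All 3 arrays of undivided bulge at PD21 and of divided bulge at PD25 were dim. In divided bulge Limch1 fell by 3.46 ± 0.67 between the ages (adjusted p = 0.00155), from 9.03 ± 0.26 to 5.57 ± 0.62 (SD, n = 3). The call was lost within either array set alone, with -3.01 in set A (adjusted p = 0.0522) and -3.89 in set B (adjusted p = 0.0564).

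Of 12 actomyosin genes 11 could be tested, and none passed between undivided bulge and non-bulge at PD21. At PD25, Lmo7, the closest relative of Limch1, was lower, at -1.66 ± 0.28 (adjusted p = 0.000182), and it stood at -0.79 ± 0.28 at PD21 (adjusted p = 0.0738). Myh10, a non-muscle myosin heavy chain, was higher by 2.16 ± 0.52 at PD25 (adjusted p = 0.00619), with 1.29 ± 0.52 at PD21 (adjusted p = 0.124). In divided bulge Lmo7 fell by 1.66 ± 0.28 between the ages (adjusted p = 0.000448) and Myh10 rose by 2.32 ± 0.52 (adjusted p = 0.00566). Tpm1 rose there by 0.94 ± 0.26 (adjusted p = 0.0233) and Tpm2 by 0.96 ± 0.28 (adjusted p = 0.0337).

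Spata13 (Asef2) is an exchange factor that loads Rac and Cdc42 with GTP and binds APC. Its arrays of PD21 read 9.95, 10.08 and 9.61 in non-bulge, 8.16, 9.23 and 9.48 in divided bulge and 6.68, 4.96 and 5.08 in undivided bulge. Those of PD25 read 7.70, 8.05 and 9.50 in non-bulge, 7.78, 5.60 and 5.84 in divided bulge and 6.78, 6.78 and 5.50 in undivided bulge. On the probe set standing for the gene, non-bulge cells of PD21 overlapped no other group, whereas non-bulge of PD25 overlapped divided bulge of both ages. The other passing probe set overlapped between non-bulge and divided bulge at PD21, with means of 6.65 and 6.41. The difference between the ages of divided bulge, -2.55 ± 0.64 (adjusted p = 0.0127), lost its call within set A (-0.91, adjusted p = 0.65). It also lost it without mouse 2 or 3 of either divided group.

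Arhgdib is a GDP dissociation inhibitor, which keeps inactive small GTPases in the cytosol, and is best known from blood cells. It was above the array median on all 18 arrays. At PD21 it read 12.19, 12.78 and 11.95 in non-bulge, 12.61, 12.51 and 11.92 in divided bulge and 8.25, 9.92 and 9.06 in undivided bulge. Non-bulge cells of PD25 read 12.41, 12.37 and 12.41, divided bulge 9.96, 9.70 and 8.03, and undivided bulge 9.39, 9.01 and 9.18. The gene thus had a high level shared by non-bulge of both ages and divided bulge of PD21, whose means lay within 0.09 of one another, and a low level shared by the 3 other groups. In divided bulge it fell by 3.12 ± 0.40 (adjusted p = 2.05e-05), and this call held in all 20 other settings (highest adjusted p 0.0266).

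Immune markers were read beside Arhgdib, and 15 of the 16 listed were on the array. The pan-leukocyte gene Ptprc was dim on 17 of 18 arrays, with group means between 4.93 and 6.29. Laptm5, a lysosomal protein of blood cells, was dim on 1 array, with group means between 7.36 and 8.97. The antigen presentation genes Cd74, H2-Aa and H2-Ab1 were dim on 2 each. From non-bulge to undivided bulge of PD21 single genes went both ways. Coro1a (6.85 and 5.32), Lcp1 (6.43 and 5.10), Tyrobp (7.08 and 6.00) and Itgae (6.31 and 5.52) were lower, like Arhgdib. These were dim on 12, 14, 15 and 15 arrays. Cd74 (7.87 and 7.20), Ptprc (6.29 and 5.97), H2-Eb1 (5.73 and 5.21), Cd52 (5.58 and 5.01) and Fcer1g (5.44 and 5.20) were lower as well. Laptm5 (8.40 and 8.97), Cd3e (6.55 and 6.97), Cd3g (6.09 and 6.56), H2-Aa, H2-Ab1 and Cd207 were higher. At PD25 Coro1a (5.83 and 6.23) and Lcp1 (5.89 and 6.56) were higher, and Tyrobp and Itgae lower. Of the others at PD25, Ptprc, Cd74, H2-Aa, H2-Ab1, H2-Eb1, Laptm5 and Fcer1g were higher. Cd3e, Cd3g, Cd207 and Cd52 were lower. The summed signal of the immune list was 881 to 5928 in non-bulge, 1605 to 2775 in divided and 1438 to 2195 in undivided bulge at PD21. At PD25 it was 818 to 1276, 1416 to 1889 and 867 to 1694. The immune sums of non-bulge and undivided bulge overlapped at both ages, and the part of immune cells in the differences of Arhgdib was not tested.

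Rab27a is the GTPase that docks melanosomes and other secretory organelles at the plasma membrane. Non-bulge arrays of PD21 gave 9.53, 9.74 and 10.45, divided bulge 8.14, 9.27 and 8.76, and undivided bulge 6.68, 6.62 and 7.63. At PD25 non-bulge gave 8.98, 8.26 and 10.29, divided bulge 5.79, 6.26 and 7.85, and undivided bulge 5.20, 6.94 and 6.78. The other probe sets of Rab27a overlapped between divided bulge and non-bulge at PD21, and 1 of them had means of 9.39 and 9.46. Only on the probe set standing for the gene did divided bulge of PD21 lie below non-bulge of its age without overlap. On that probe set it also lay above the 3 low groups without overlap, and the low groups overlapped one another. Its difference between the ages of divided bulge was -2.09 ± 0.60 (adjusted p = 0.0331), and it lost the call in 7 of 20 other settings. These include leaving out mouse 1 or 2 of divided PD25 and mouse 2 or 3 of divided PD21.

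Melanocyte markers were read beside Rab27a. Of 12 such genes, 6 (Tyr, Mlana, Kit, Oca2, Gpr143 and Mc1r) were dim on all 18 arrays, and Dct, an enzyme of pigment synthesis, had group means between 4.76 and 6.98. The list summed to 690 to 968 signal units in non-bulge and 1220 to 3970 in undivided bulge at PD21, and to 315 to 665 and 1226 to 1370 at PD25. The sums were thus lower in non-bulge than in undivided bulge. Mitf, a transcription factor, was the brightest of the 12 in every group and weighs most in these sums. It was the only one above the median on all 18 arrays, at 8.62 and 10.89 at PD21 and 7.63 and 9.63 at PD25. Tyrp1, Slc45a2, Sox10 and Dct were dim on 17, 17, 15 and 10 arrays, so the sums mostly read 1 gene. The melanosome protein Pmel had the order of Rab27a, at 7.75 in non-bulge and 6.73 in undivided bulge at PD21 and 7.44 and 7.24 at PD25. The part of melanocytes in the differences of Rab27a was not tested.

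Of 16 relatives and effectors of Rab27a 10 could be tested; 3 were lower in undivided bulge at PD21, 2 at PD25 and none was higher. The paralog Rab27b was lower, at -1.66 ± 0.34 at PD21 (adjusted p = 0.00141) and -2.26 ± 0.34 at PD25 (adjusted p = 4.13e-05). Exph5 (Slac2-b), a Rab27 effector of keratinocytes, was lower, at -2.53 ± 0.34 (adjusted p = 1.22e-05) and -3.02 ± 0.34 (adjusted p = 1.06e-06). In divided bulge Rab27b fell by 1.24 ± 0.34 between the ages (adjusted p = 0.0233) and Exph5 fell by 2.39 ± 0.34 (adjusted p = 7.58e-05). Rab38, a GTPase of melanosome cargo transport, was lower at PD21 (-0.73 ± 0.21, adjusted p = 0.0212) and stood at -0.58 ± 0.21 at PD25 (adjusted p = 0.0796). Rph3al, another effector, did not pass between undivided bulge and non-bulge, at 0.36 ± 0.62 and 0.94 ± 0.62, and rose in divided bulge by 2.46 ± 0.62 (adjusted p = 0.0141).

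Adgrg2 (GPR64) is an adhesion receptor best known from the epididymis. On the PD21 arrays it read 9.04, 8.04 and 9.81 in non-bulge, 9.39, 9.56 and 9.01 in divided bulge and 5.66, 6.05 and 5.21 in undivided bulge. At PD25 it read 9.34, 8.67 and 9.57 in non-bulge, 5.98, 7.43 and 4.68 in divided bulge and 4.13, 6.01 and 6.03 in undivided bulge. Divided bulge of PD21 had the highest mean of the 6 groups and overlapped non-bulge of both ages. All 6 undivided arrays were dim. Divided bulge of PD25 against PD21 gave -3.29 ± 0.64 (adjusted p = 0.00166), and within set B -2.96 without passing (adjusted p = 0.129).

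Of 28 other adhesion receptors 13 could be tested, and 3 were higher in undivided bulge at PD21, against 3 higher and 1 lower at PD25. Adgra3 was higher by 1.23 ± 0.26 at PD21 (adjusted p = 0.00164) and by 1.39 ± 0.26 at PD25 (adjusted p = 0.00049). Adgrl3, a latrophilin, was higher by 2.16 ± 0.52 (adjusted p = 0.00561) and by 2.44 ± 0.52 (adjusted p = 0.00192). Adgrf4 was the receptor lower at PD25, at -3.15 ± 0.68 (adjusted p = 0.00225), with -1.01 ± 0.68 at PD21 (adjusted p = 0.416). Adgrl2 passed at PD25 (0.91 ± 0.27, adjusted p = 0.0254) with 0.52 ± 0.27 at PD21 (adjusted p = 0.252), and Adgrg1 at PD21 (1.07 ± 0.35, adjusted p = 0.0491) with 0.51 ± 0.35 at PD25 (adjusted p = 0.487).

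Slc16a9 (MCT9) belongs to the monocarboxylate transporters and has been linked to carnitine transport. In non-bulge of PD21 it read 9.32, 11.67 and 10.23, in divided bulge 11.23, 10.23 and 10.99 and in undivided bulge 4.10, 7.46 and 7.10. At PD25 the levels were 10.23, 9.43 and 9.92 in non-bulge, 5.66, 8.82 and 6.96 in divided bulge and 6.69, 6.02 and 5.59 in undivided bulge. Divided bulge of PD21 had the highest mean and overlapped non-bulge of that age, and divided bulge of PD25 spread over 3.16 log2 units, the widest of the 10 genes in that group. Divided bulge of PD25 stood at -3.67 ± 0.75 against PD21 (adjusted p = 0.00266), and the difference did not pass within set B (-3.09, adjusted p = 0.051).

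Of 15 related transporters and chaperones 12 could be tested; 3 were lower and 2 higher in undivided bulge at PD21, and 3 and 1 at PD25. Slc16a1, the lactate and pyruvate carrier, was lower, at -1.90 ± 0.28 (adjusted p = 4.03e-05) and -0.94 ± 0.28 (adjusted p = 0.0305). Slc16a6 was lower, at -2.19 ± 0.56 at PD21 (adjusted p = 0.0105) and -2.23 ± 0.56 at PD25 (adjusted p = 0.00945), and Slc16a14 at -1.31 ± 0.32 (adjusted p = 0.0075) and -1.36 ± 0.32 (adjusted p = 0.00553). Emb (embigin), a chaperone that carries these transporters to the membrane, was higher by 2.13 ± 0.30 (adjusted p = 1.98e-05) and by 2.65 ± 0.30 (adjusted p = 9.95e-07). The other chaperone, basigin (Bsg), stood at 0.27 ± 0.26 and -0.03 ± 0.26 and did not pass. Members of the family thus lay on both sides, with Slc16a7 higher at PD21 (1.52 ± 0.41, adjusted p = 0.0141) and at 1.04 ± 0.41 at PD25 (adjusted p = 0.124).

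St3gal6 adds sialic acid to terminal galactose of glycoproteins and takes part in making selectin ligands. Its PD21 levels were 9.27, 9.65 and 9.38 in non-bulge, 8.89, 8.97 and 9.21 in divided bulge and 4.73, 5.45 and 4.72 in undivided bulge. At PD25 they were 9.33, 9.52 and 9.65 in non-bulge, 4.08, 6.96 and 5.78 in divided bulge and 5.63, 4.19 and 4.06 in undivided bulge. On the probe set standing for the gene, the 2 non-bulge groups overlapped each other and lay above divided bulge of PD21 without overlap. The difference of means at PD21 was 0.41. The other passing probe sets overlapped between divided bulge and non-bulge at PD21, with means of 7.67 and 7.64 and of 6.85 and 6.80. All 9 arrays of the 3 low groups were dim, so the low level has little resolution. The difference between the ages of divided bulge was -3.42 ± 0.59 (adjusted p = 0.00058), and within set B -2.84 without passing (adjusted p = 0.0646).

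Of 20 listed relatives, the other sialyltransferases and the fucosyltransferase Fut7, 10 could be tested, and 2 were higher in undivided bulge at PD21 and 1 at PD25, with none lower. St3gal2 was higher by 2.08 ± 0.41 (adjusted p = 0.00102) and by 1.84 ± 0.41 (adjusted p = 0.0032). St3gal1 was higher at PD21 by 3.22 ± 0.76 (adjusted p = 0.00512), and at PD25 it stood at 0.17 ± 0.76 (adjusted p = 0.955). The close paralogs St3gal3, St3gal4 and St3gal5 did not pass at either age, with values of 1.09, 0.56 and 1.70 at PD21 and 1.06, -0.74 and 0.73 at PD25. In divided bulge 3 of the 10 rose between the ages and none fell. St3gal2 rose by 2.28 ± 0.41 (adjusted p = 0.000784) and St3gal3 by 2.41 ± 0.67 (adjusted p = 0.0271). St6gal1, which makes the other main sialic acid linkage, rose by 3.75 ± 0.63 (adjusted p = 0.000399).

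Akr1c18 is a hydroxysteroid dehydrogenase that inactivates progesterone. At PD21 it read 10.91, 11.37 and 11.28 in non-bulge, 10.84, 10.77 and 10.55 in divided bulge and 6.85, 7.41 and 7.60 in undivided bulge. At PD25 it read 9.47, 8.88 and 9.20 in non-bulge, 8.43, 6.61 and 6.78 in divided bulge and 6.36, 6.70 and 7.31 in undivided bulge. The upper groups did not overlap: non-bulge of PD21 lay above divided bulge of PD21, and that above non-bulge of PD25. In non-bulge cells it stood at -2.01 ± 0.42 at PD25 against PD21. Divided bulge of PD25 stood at -3.44 ± 0.42 against PD21 (adjusted p = 1.26e-05), and this call held in all 20 other settings (highest adjusted p 0.0146). None of 5 tested aldo-keto reductases passed at either age or between the ages of divided bulge, and the other Akr1c genes of the list were not among those tested. Close relatives of Akr1c18 share sequence, and binding of their transcripts to its probe set was not tested.

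The divided fraction was then placed within each mouse, on the linear signal scale, as a percent of the way from undivided (0) to non-bulge cells (100). In the PD21 mice the median over the 10 genes was 85.1, 61.4 and 68.4%, and in the PD25 mice 7.02, 10.9 and 1.9%. Single genes varied widely at PD21, from 19.6% for Rab27a in mouse 3 to 385% for Slc16a9 in mouse 1, where its non-bulge signal (621.8) was under the divided one (2391.8). Phldb2 stood at 22.3, 20.7 and 67.5% at PD21 and 34.3, 38.5 and 21.9% at PD25, so the ages overlapped, as they did for Spata13 and Slc16a9, which reached 112 and 62% in 1 PD25 mouse each. The bulge marker Cd34 stood at 93.6, 95.9 and 87.9% at PD21 and 41.2, 38.1 and -36.1% at PD25, and Lhx2 at 80.3, 87.8 and 77% and then -36.5, 9.13 and -61%. On this linear scale, by the median over the 10 genes and by Cd34 and Lhx2, divided cells of PD21 stood nearer to non-bulge cells. Those of PD25 stood nearer to undivided ones. For the 2 markers the PD21 position depends on the scale. In log2 levels the divided mean of Cd34 (8.93) lay near the middle between non-bulge (4.52) and undivided bulge (12.73). So did that of Lhx2 (9.64, between 7.68 and 11.79). Gene by gene this varied: of 30 values (10 genes in 3 mice) 22 were over 50% at PD21 and 2 at PD25. At PD21 both Phldb2 and Rab27a (28.2, 68.5 and 19.6%) were under 50% in 2 of 3 mice by the probe set standing for each. Other probe sets of Rab27a overlapped between divided bulge and non-bulge at that age. These percentages use the undivided and non-bulge arrays on which the genes were selected and carry no test.

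**Figure D3:**
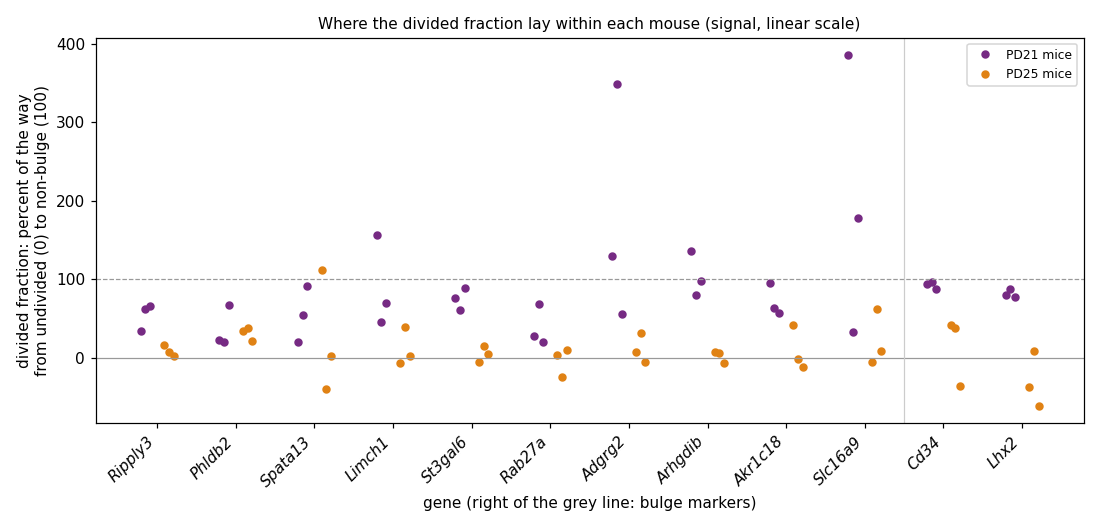
Position of the divided fraction in each mouse on the linear signal scale, as percent of the way from undivided (0, solid line) to non-bulge cells (100, dashed line), for the 10 genes and for Cd34 and Lhx2; purple points are the 3 PD21 mice and orange points the 3 PD25 mice. Median positions of the 10 genes were 61.4 to 85.1% at PD21 and 1.9 to 10.9% at PD25, and the ages overlap for Phldb2, Spata13 and Slc16a9.

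Of the 10 genes, 6 had more than 1 probe set. All probe sets that passed the filter gave the same direction as the one standing for the gene in undivided bulge against non-bulge at both ages and in divided bulge between the ages. Probe sets dim in the low groups could pass only through the groups where they were bright, so this agreement is no independent support. The sizes varied: for St3gal6 the 3 passing probe sets gave -4.46, -2.29 and -1.52 at PD21, and for Rab27a the 4 gave -2.93, -3.66, -2.66 and -1.84. The 4 probe sets that did not pass included 1 of Limch1 that turned from -1.31 at PD21 to 0.70 at PD25 and 1 of St3gal6 near 0 (-0.20 and -0.12), and the others, of Spata13 and St3gal6, were lower at both ages.

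Over all 9 lists of relatives and partners, 91 of 150 genes could be tested. Between undivided bulge and non-bulge at PD21, 8 were lower and 13 higher in the former (8.79% and 14.3%, beside 4.93% and 6.12% of all tested genes). At PD25 9 were lower and 10 higher (9.89% and 11%, beside 4.83% and 5.71%). Between the ages of divided bulge 10 fell and 16 rose (11% and 17.6%, beside 3.47% and 4.37%). With the mouse as a replicate block the counts for undivided bulge against non-bulge were 10 and 16 at PD21 and 10 and 15 at PD25. In all, 15 genes passed at both ages, 7 lower at both and 8 higher at both. The difference between the ages passed for 0 of the 91 genes and for 0 of all tested genes in limma (446 had an unadjusted p under 0.05), so a gene that passed at 1 age alone is not shown to differ between them.

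**Figure D4:**
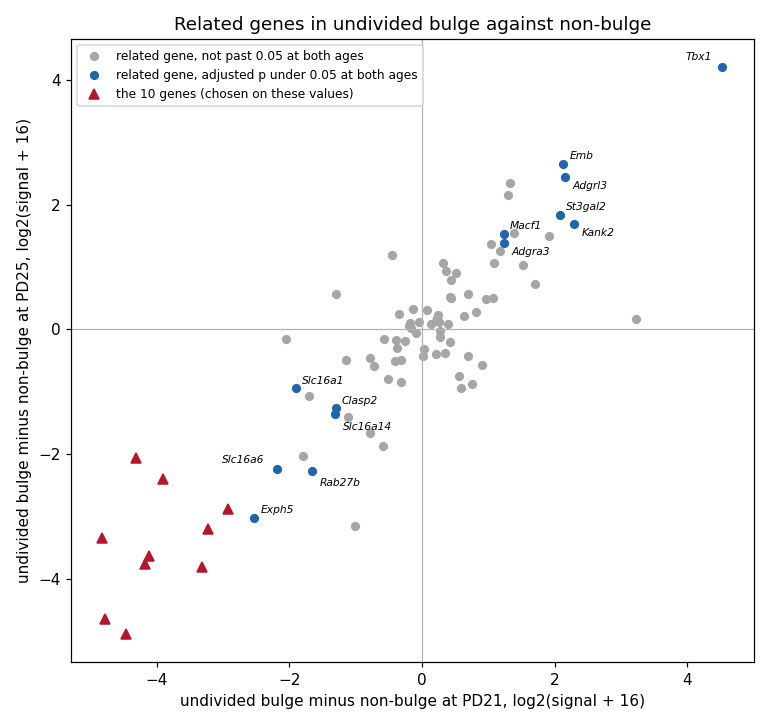
Difference of mean log2(signal + 16) between undivided bulge and non-bulge at PD21 (horizontal) and PD25 (vertical) for 80 of the tested related genes (circles; blue and named where the adjusted p was under 0.05 at both ages) and for the 10 genes (red triangles), which were selected on these values. Tbx1 lies farthest to the upper right, and Exph5 is the named relative nearest to the 10 genes.

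The genes whose levels followed the 10 most closely over the 18 arrays were found by Pearson's r to the mean of their standardised levels. Il33, an alarmin cytokine of keratinocytes, had an r of 0.972, the ligand Wnt3 0.971, the heparan sulfate sulfotransferase Hs3st3b1 0.969, the secreted protein Fam3c 0.969 and Ssbp2, a partner of LIM-domain binding proteins, 0.969. Il33 averaged 11.37, 10.88 and 6.92 in non-bulge, divided and undivided cells at PD21 and 11.00, 7.23 and 6.53 at PD25. Of single genes, St3gal6 had the highest value, 0.985 with the growth factor Bmp4, which averaged 9.66, 9.28 and 5.76 at PD21 and 9.87, 6.77 and 5.44 at PD25. Adgrg2 was most like the organic cation transporter Slc22a4 (0.97), Limch1 like the glycosyltransferase Galnt1 (0.959), Arhgdib like Il33 (0.956), Ripply3 like Il33 (0.969) and Phldb2 like the carbonic anhydrase Car12 (0.955). The nearest to Slc16a9 was Klhl5 (0.943), to Akr1c18 the kinase Map2k6 (0.933), to Spata13 the exchange factor Vav3 (0.931) and to Rab27a the transcription factor Gata3 (0.924). Among the 10 genes r lay between 0.693 and 0.957 over 45 pairs, with a median of 0.843. The 18 arrays share mice, groups and array sets, and genes selected for 1 contrast correlate through it, so these values are descriptions.

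Markers of other cells were read beside the 10 genes, and their part in the differences was not tested. Epidermal differentiation markers were bright in all fractions, at 65394 to 133946 summed signal units in non-bulge and 66974 to 151105 in undivided bulge at PD21. Krt10, a keratin of suprabasal epidermis, averaged 14.75, 14.93 and 14.62 in non-bulge, divided and undivided cells at PD21 and 14.64, 14.17 and 13.96 at PD25. Basal epidermal markers summed to 55440 to 93507 in non-bulge and 53927 to 112094 in undivided bulge at PD21, overlapping ranges. Within that list Ly6d and Gata3 followed the 10 genes, with Ly6d at 12.59, 12.69 and 10.65 at PD21 and 12.75, 10.38 and 9.35 at PD25. The markers of isthmus, infundibulum and sebaceous gland summed to 31065 to 55180 in non-bulge and 16993 to 37515 in undivided bulge at PD21, and to 29982 to 31399 and 24016 to 24800 at PD25. Of that list Cst6, Scd3 (8.40 and 10.42 at PD25) and Fasn were higher in undivided bulge at both ages. Elovl3 was higher at PD25 only (7.55 and 8.54), and the other genes were lower at both ages. Dermal fibroblast markers went the other way, at 3759 to 5987 in non-bulge and 17689 to 30953 in undivided bulge at PD21, and at 4600 to 8701 and 10065 to 12164 at PD25. Of the 9 genes on that list, the matrix genes Sparc (11.85 and 14.23), Col1a1 (5.73 and 9.83) and Col6a1 (7.04 and 10.69) and the intermediate filament Vim (8.47 and 9.73) averaged above their non-bulge levels in undivided bulge at PD21. Col1a2, Col3a1 and Dcn averaged lower there, and Lum and Pdgfra were dim on all 18 arrays. Hair germ and shaft markers summed to 543 to 713 in non-bulge and 2635 to 3671 in undivided bulge at PD21. Lef1 (6.65 and 10.49) and Hoxc13 (6.47 and 9.93) had the large differences. Cdh3 (8.31 and 8.71), Msx2 (5.95 and 6.10) and Shh (5.22 and 5.07) differed little. Wnt10b was lower in undivided bulge (6.17 and 4.31), and Krt35 was dim on all 18 arrays. Endothelial, muscle, nerve and erythroid lists summed to at most 645 signal units on every array.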

How the data were processed

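Expression was measured on 18 Affymetrix mouse arrays, 5 ng of RNA each, amplified per the labels' protocols. The deposited values are probe set intensities on a linear scale, made by the authors with GCOS per the submitters' processing notes, and each array's 2% trimmed mean is 500, so no further scaling was applied. Present calls were not used here.

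Probe sets with 1 gene symbol in the platform annotation (34945 of 45101) were kept if above the array median on at least 3 arrays, and each gene was represented by its brightest one on average. Group means of log2(signal + 16) were fitted over all 18 arrays with limma 3.58.1 in R 4.3.3 (lmFit, eBayes with trend), and p-values were adjusted by Benjamini-Hochberg over 11569 genes at 0.05. The script was tested on simulated data. The number of mice limits the precision.

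Fractions of an age with the same mouse number come from the same animal, per the titles, and their deviations from group means correlated at 0.0745 to 0.462. The fit with this replicate block stands among the alternatives. All 10 genes were named. From each list of relatives up to 4 genes with the lowest adjusted p at either age were named, plus close paralogs. Rph3al, Rab3d, Sytl2, Tpm1, Tpm2, St6gal1, Bsg, Ly6d and other markers were named after their values were seen. The genes of 1 list count in the totals but are not reported here. The 10 genes and the lists were chosen with earlier results of these data known. The array sets were found from spike-ins, and fits within them were added after seeing the data. Promoter windows are RefSeq's for GRCm38.p6, searched on both strands.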

Additional observations from a re-analysis of the deposited data

How the results depend on the processing

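Over 14 planned and added settings without a left-out array, 8 or 9 of the 10 genes passed in divided bulge between the ages, except within array set A (6) and within array set B (4). Leaving out 1 array gave 7 to 9. With the replicate block 9 passed, and no call changed. Phldb2 turned sign within set A (0.67) and without mouse 3 of divided PD21 (0.07), and ran from -0.84 to 0.07 over the fits without 1 array. For the relatives in undivided bulge against non-bulge at PD21, 21 passed; leaving out 1 array gave 15 to 22, the replicate block 26 and set B alone 8. At PD25 19 passed; leaving out 1 array gave 16 to 18, the replicate block 25 and set A alone 9. Fewer arrays enter each set alone. Centring arrays on their median left 5 lower and 13 higher relatives at PD21 and 5 and 12 at PD25, and moved the lower share of all called genes at PD21 from 44.6% to 31.9%, with a median shift over all genes of 0.12. Over all genes, 907 passed between the ages of divided bulge, 595 within set A, 59 within set B and 525 to 929 without 1 array. Undivided bulge against non-bulge called 1278 at PD21, 1926 with the replicate block and 409 within set B, and 1220 at PD25, 1922 with array weights and 640 within set A. Of 80 recomputed level differences 12 moved by more than the spread, under another pseudocount, and 0 changed sign. They were of Limch1, St3gal6, Ripply3, Adgrg2, Spata13 and Slc16a9 in undivided bulge against non-bulge, whose folds depend on how dim levels are treated; Ripply3 at PD25 ran from -5.42 to -3.48.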
